A study of Mus musculus with 18 samples.

Results

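S100 proteins are small calcium-binding proteins, and the 7 genes described here are S100a4, S100a6, S100a8, S100a9, S100a10, S100a11 and S100a13. A gene was measured by the probe sets that carry its symbol and no other, and the one with the highest mean over all arrays was used. Of the 7 genes, 6 had such a probe set, out of 18193 genes on the array with one. S100a11 was not analysed here, because its probe set carries several symbols. S100a10 had 3 such probe sets and the other 5 genes 1 each. Of these 6 genes, 4 passed the filter on dim signals (S100a4, S100a6, S100a10 and S100a13) and were tested with the 12273 genes that passed it, while S100a8 and S100a9 lay below it in every group.

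The arrays were Affymetrix M430v2 arrays of CD4 T cells from mice, in 6 groups of 3. Treg here are sorted CD25+ cells and Tconv CD25- cells, and both were sorted as CD4+ and as negative for B220, CD11b and CD8a. Fat Treg and fat Tconv came from the epididymal abdominal fat of male C57BL/6 mice of 25 to 35 weeks, with TCRb+ added to the gate and cells of 8 to 10 mice pooled for each array. Thymus Treg and thymus Tconv came from mice of the BDC2.5/NOD line aged 4 to 6 weeks, with cells of 3 to 6 mice per array and CD8a-bearing cells depleted before sorting. BDC2.5 is a T cell receptor transgene, which both thymus groups carry. Lymph node Treg and lymph node Tconv came from cervical, inguinal and mesenteric nodes of C57BL/6 mice of 32 to 36 weeks, with 3 to 6 mice per array. The labels give sex for the fat mice only. Thymus and lymph node thus differ also in strain, transgene and age, and these cannot be told apart from the tissue. Fat and lymph node differ also in the TCRb+ gate, the mice per pool and the age range, and possibly in sex. These cannot be told apart from the tissue either. An array is a pool of mice, so errors measure the spread between pools, which may be partly technical.

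S100 proteins carry paired EF-hands, the loops that bind calcium, and most act as dimers that expose a binding face when calcium rises. Inside cells they bind target proteins such as annexins and cytoskeletal motors, and some are released and act on receptors of other cells. In mice most S100 genes lie in one cluster on chromosome 3. S100A8 and S100A9, which form calprotectin, are abundant in neutrophils and monocytes, so their transcripts serve here as a check for myeloid RNA in the sorted T cells. S100A4 and S100A6 are known as transcripts of activated, memory and tissue T cells more than of naive ones.

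The promoter windows of 3 members are shown because the results turn on S100a4 and S100a6, whose transcripts changed together, and on S100a13, a gene of the same cluster that differed less. The windows run from 250 bases before to 50 bases after the RefSeq start site in mouse build GRCm38.p6, 300 bases in all. S100a4 is at chr3:90603520-90603819, S100a6 at chr3:90612644-90612943 and S100a13 at chr3:90514185-90514484, each on the plus strand and written 5′ to 3′. Capitals mark matches, on either strand, to the letters TATAAA (the TATA box), CCAAT (the CCAAT box), TGTGGT (the core bound by Runx factors) or TGANTCA (the site bound by AP-1).
S100a4: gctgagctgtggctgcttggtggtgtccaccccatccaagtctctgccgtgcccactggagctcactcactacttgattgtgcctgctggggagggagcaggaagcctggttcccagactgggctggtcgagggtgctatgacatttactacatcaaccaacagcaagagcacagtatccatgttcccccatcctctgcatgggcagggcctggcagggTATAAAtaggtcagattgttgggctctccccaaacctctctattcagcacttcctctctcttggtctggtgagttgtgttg
S100a6: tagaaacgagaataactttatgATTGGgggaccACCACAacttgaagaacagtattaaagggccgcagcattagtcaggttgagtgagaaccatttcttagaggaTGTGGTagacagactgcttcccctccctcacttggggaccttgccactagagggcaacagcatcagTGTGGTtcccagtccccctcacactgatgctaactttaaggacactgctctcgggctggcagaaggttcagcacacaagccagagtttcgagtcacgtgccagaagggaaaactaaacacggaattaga
S100a13: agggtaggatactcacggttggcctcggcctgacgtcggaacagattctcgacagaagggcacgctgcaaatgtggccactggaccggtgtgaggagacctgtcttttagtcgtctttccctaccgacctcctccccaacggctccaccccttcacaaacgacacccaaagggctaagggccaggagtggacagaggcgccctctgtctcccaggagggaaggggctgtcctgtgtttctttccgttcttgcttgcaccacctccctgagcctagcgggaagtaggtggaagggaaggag
S100a4 has TATAAA with its first base at -31, counted from the start site, and no other match. S100a6 has no TATAAA, but has CCAAT on the minus strand at -228 and TGTGGT at -217 on the minus strand and at -145 and -79 on the plus strand. S100a13 has none of the 4 words, and none of the windows of these 3 genes holds TGANTCA. No pair of matches overlaps. Over 32851 RefSeq windows of that length, 13.6% hold at least 1 TATAAA, 37.4% CCAAT, 16.8% TGTGGT and 7.8% TGANTCA on either strand. A single match to each word that was matched is thus common. The share of windows with 3 TGTGGT matches, as in S100a6, was not counted. No promoter of S100a10 was used here.

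The deposited intensities of the 6 fat arrays had medians from 76.9 to 82.2 and those of the other 12 arrays from 57.9 to 63.0. All values below are therefore intensities after quantile normalization of the 18 arrays to one scale, on which the dim filter lies at 65.5. Probe sets differ in brightness for the same amount of RNA, so levels are compared between groups and not between genes. The sort was checked with Foxp3, the transcription factor of regulatory T cells, which averaged 1315 ± 87.3 in fat Treg against 75.7 ± 35.0 in fat Tconv, 810.2 ± 243 in thymus Treg against 35.9 ± 10.5 in thymus Tconv, and 972 ± 34.6 in lymph node Treg against 48.1 ± 8.09 in lymph node Tconv (SD, n = 3 arrays each). The fat arrays also carried transcripts of other cells of that tissue, given with the comparison of fat and lymph node.

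S100a4 encodes a protein, also known as metastasin, that binds non-muscle myosin and moves with cell motility. Its intensity was 4849.8, 5371 and 5637 in fat Treg and 1328, 2248 and 2046 in fat Tconv. In thymus Treg it was 452, 461 and 253, and in thymus Tconv 29.1, 33.1 and 34.3. In lymph node Treg it was 596, 315 and 228, and in lymph node Tconv 178, 132 and 183. The 3 Treg arrays lay above the 3 Tconv arrays in each tissue, and both fat groups lay above all 12 other arrays. The order of the means was fat Treg, fat Tconv, thymus Treg, lymph node Treg, lymph node Tconv and thymus Tconv, and of the neighbours in that order thymus Treg and lymph node Treg were the pair whose arrays overlapped. Thymus Tconv lay below the dim filter on all 3 arrays.

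S100a6 encodes calcyclin, which was first described in dividing cells and binds annexins. Its intensity was 9764, 11423 and 10888 in fat Treg and 3066, 5091 and 5422 in fat Tconv. In thymus Treg it was 1239, 1391 and 920.1, and in thymus Tconv 35.9, 32.0 and 48.9. In lymph node Treg it was 1854.5, 923 and 576, and in lymph node Tconv 354, 358 and 424. S100a6 had the same order of groups as S100a4, with the same pair overlapping and the same group below the filter. Across the 18 arrays log2 values of both genes correlated with r = 0.986, and with r = 0.988 over the 6 group means. Deviations of single arrays from their group mean correlated with r = 0.902, so that within lymph node Treg, for example, the first array was highest and the third lowest for both. The 18 points share the 6 groups and the arrays' normalization, and the correlations are descriptions.

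**Figure D1:**
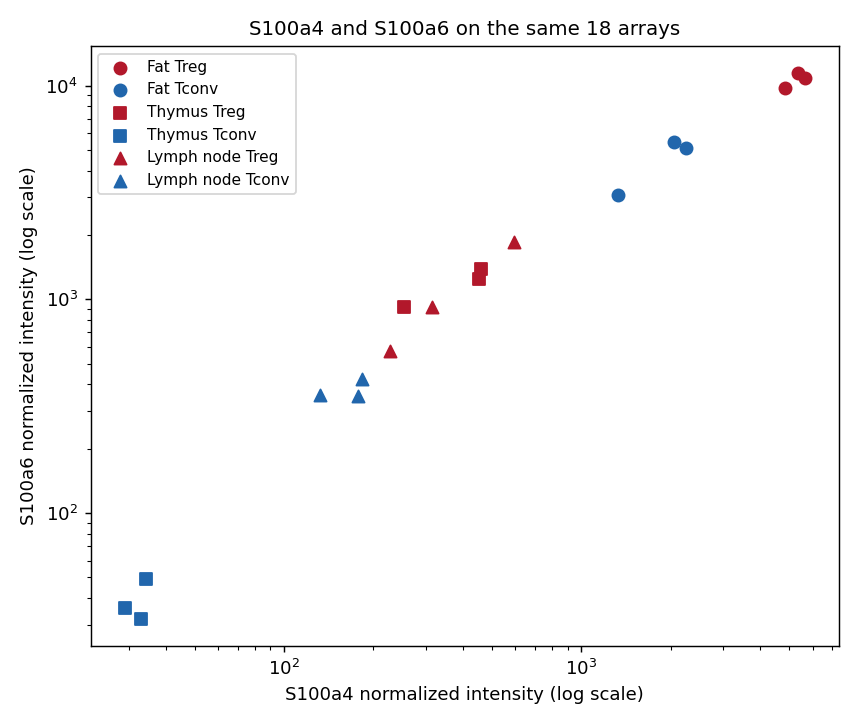
Normalized intensity of S100a4 (x axis) against S100a6 (y axis), both on log scales, with 1 point for each of the 18 arrays; colour marks Treg or Tconv and shape the tissue. The 3 thymus Tconv arrays sit alone at the low end, at 29.1 to 34.3 for S100a4, and the 3 fat Treg arrays at the high end, at 4849.8 to 5637.

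S100a10 encodes p11, the partner of annexin A2 at the cell membrane, which unlike other S100 proteins holds its active shape without calcium. Its intensity was 7057, 7557.5 and 8129 in fat Treg and 2257, 4217 and 3774 in fat Tconv. In thymus Treg it was 1829, 1643 and 2329, and in thymus Tconv 1064, 1335 and 1256.5. In lymph node Treg it was 4331, 2702 and 1697, and in lymph node Tconv 1952, 1487 and 1444. S100a10 was well above the filter in every group, and fat Treg stood apart from all others. The next 4 groups in order of mean, fat Tconv, lymph node Treg, thymus Treg and lymph node Tconv, overlapped each with its neighbour, and thymus Tconv lay below them. The correlation of S100a10 over the 18 arrays was 0.912 with S100a4 and 0.876 with S100a6.

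S100a13 encodes a protein that takes part in the release of FGF1 and interleukin-1 alpha, which lack a signal for secretion. Its intensity was 567, 661 and 625 in fat Treg and 452, 639 and 544 in fat Tconv. In thymus Treg it was 353, 312 and 323, and in thymus Tconv 273, 285 and 326. In lymph node Treg it was 364, 331 and 184, and in lymph node Tconv 320.4, 280.2 and 252. Treg and Tconv overlapped in each tissue, and the 6 fat arrays lay above the 12 others. S100a13 correlated with S100a10 at 0.844, with S100a4 at 0.825 and with S100a6 at 0.76 over the 18 arrays.

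S100a8, the first of the calprotectin genes, had intensities of 53.1, 24.2 and 22.2 in fat Treg and 37.7, 23.1 and 24.4 in fat Tconv. The 12 arrays of thymus and lymph node lay between 22.5 and 49.1, the highest being a thymus Tconv array, and no array reached the filter at 65.5. S100a9 had 122, 40.5 and 27.7 in fat Treg and 55.4, 21.8 and 33.4 in fat Tconv, against 19.9 to 44.2 in the 12 other arrays. A single array, the first of fat Treg, was above the filter for S100a9, and the same array was the highest for S100a8. Without the filter neither gene was called in any comparison. The nearest was S100a9 in fat Treg against lymph node Treg, where limma gave 1.10 ± 0.40 (log2 difference ± SE; adjusted p = 0.0505 over 18193 genes), against 0.31 ± 0.29 for S100a8 (adjusted p = 0.466).

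**Figure D2:**
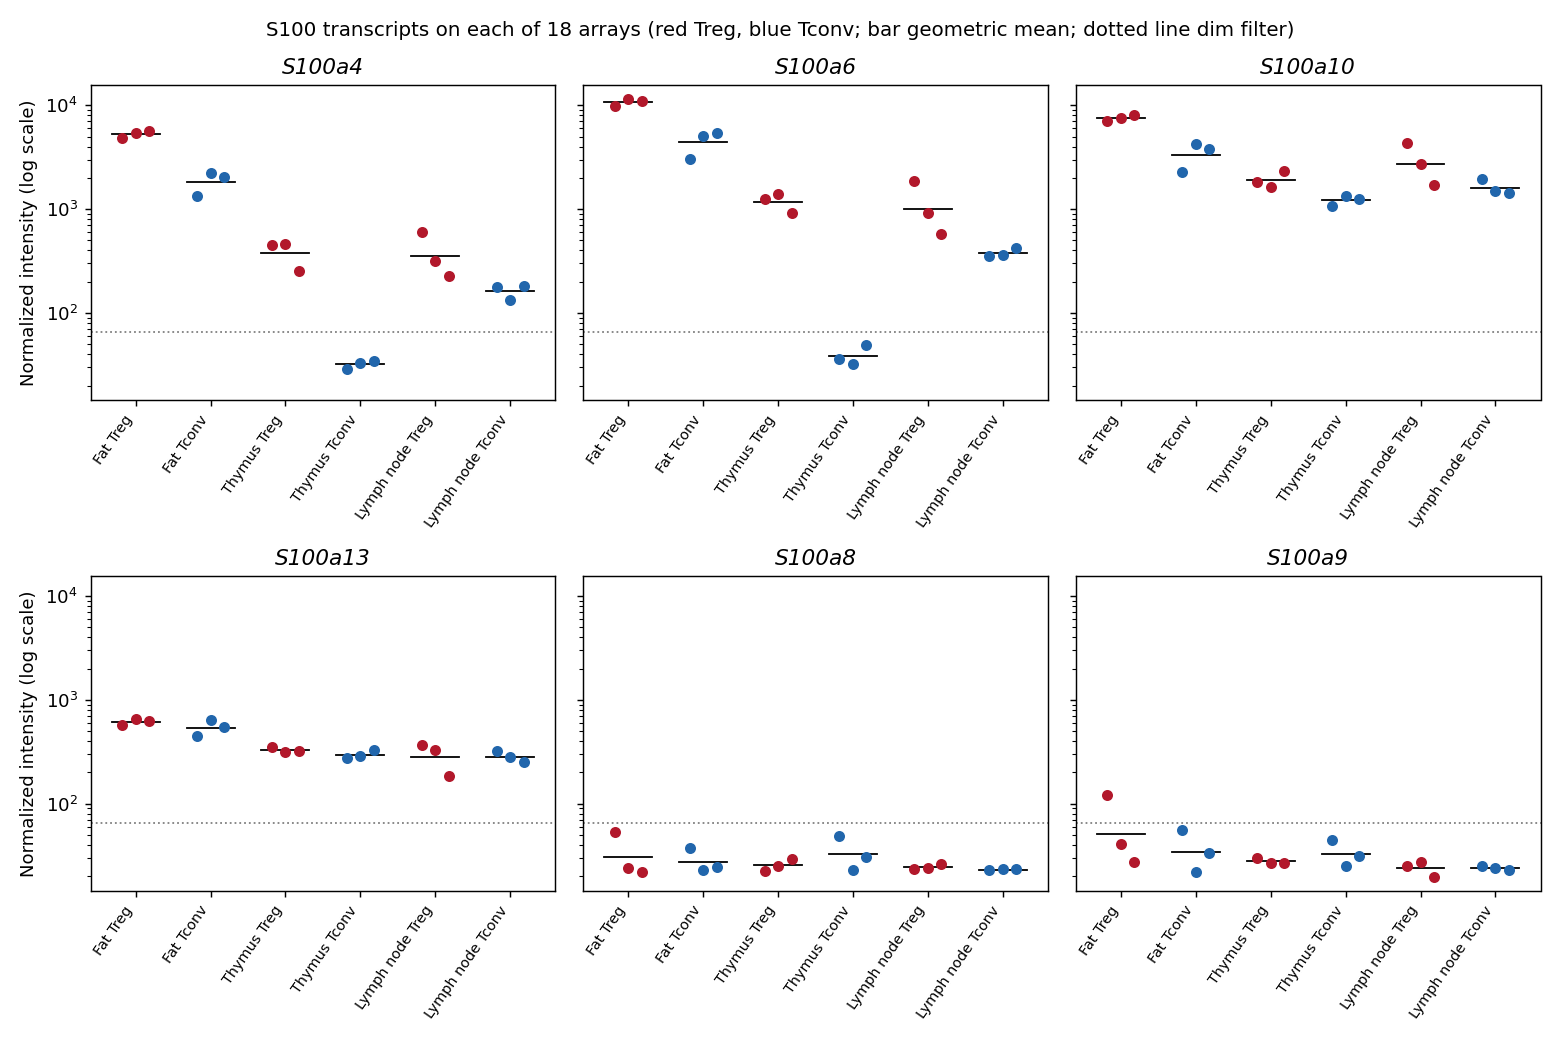
Normalized intensity (log scale) of 6 S100 transcripts on each of the 18 arrays; red points are Treg, blue points Tconv, black bars the geometric mean of 3 arrays and the dotted line the dim filter at 65.5. S100a4 and S100a6 range most widely, S100a13 stays between 184 and 661, and S100a8 and S100a9 stay under the line except for 1 fat Treg array.

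The comparison of Treg with Tconv was made in each tissue with limma, fitted over all 18 arrays. The words rose and fell are used for genes called by that fit, at a p under 0.05 once adjusted by Benjamini-Hochberg over 12273 genes. In fat, S100a4, S100a6 and S100a10 rose in Treg, which is 3 of the 4 tested members, where 12.8% of all tested genes were called, 6.9% higher and 5.95% lower. S100a4 rose by 1.53 ± 0.30 (log2 difference ± SE; 2.89-fold; adjusted p = 0.00159), S100a6 by 1.28 ± 0.32 (2.43-fold; adjusted p = 0.0103) and S100a10 by 1.20 ± 0.28 (2.29-fold; adjusted p = 0.00629). S100a13 differed by 0.19 ± 0.20 (adjusted p = 0.684), with a 95% interval from -0.24 to 0.62. The groups of 3 arrays did not overlap for the 3 called genes, as for 12.8% of all tested genes in that direction. Markers of other cells were compared between the same groups. Of 8 tested neutrophil markers, Mmp9 alone was called, higher in Treg, and the median over the 8 was 0.08. The sums over 14 such genes, which are weighted to their brightest genes, did not overlap. They were 1622 to 2439 in fat Treg and 1402 to 1619 in fat Tconv. Of 18 macrophage and monocyte markers 1, Ctss, was lower and none higher, with a median of 0.48, and no stromal or adipocyte marker was called (medians of 0.31 and 0.14, against -0.0016 over all tested genes). The sums of these last 3 lists overlapped between the groups, and the part of other cells in the S100 differences was not tested. The first fat Tconv array was the lowest of its group for each of the 4, and the call of S100a6 was lost without it (1.02, adjusted p = 0.0529). Without the first array of both fat groups, an alternative chosen after seeing the data, S100a4 remained called (1.36, adjusted p = 0.0202) and S100a6 (1.09, adjusted p = 0.0857) and S100a10 (0.97, adjusted p = 0.0607) did not.

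In the thymus S100a4 and S100a6 separated Treg from Tconv by the largest differences measured for any member between the cell types. S100a6 rose by 4.93 ± 0.32, a 30.4-fold difference (adjusted p = 2.48e-08). S100a4 rose by 3.55 ± 0.30, or 11.7-fold (adjusted p = 5.6e-07). These are 2 of the 4 tested members, where 5.67% of all tested genes were called, 3.5% higher and 2.17% lower. The deposited values hold no detection calls, and since thymus Tconv lay under the dim filter on all 3 arrays the folds are approximate. Set against the filter value in place of the Tconv arrays, the Treg mean was 17.8-fold above it for S100a6 and 5.73-fold for S100a4. With an offset of 32 added before taking logs, the differences were 4.09 and 2.67 and both remained called.

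S100a10 differed by 0.66 ± 0.28 in the thymus (1.58-fold). Its 3 Treg arrays lay above the 3 Tconv arrays, as for 9.23% of all tested genes, but it did not pass the test (adjusted p = 0.232). Treg and Tconv arrays of a replicate number varied together, and with that number as a block S100a10 was called (adjusted p = 0.038), but not with the clusters of neighbouring file numbers as a block (adjusted p = 0.0573). S100a13 differed by 0.16 ± 0.20 (adjusted p = 0.816; interval from -0.27 to 0.59). Within the 3 pairs of arrays with neighbouring file numbers, S100a6 was higher in thymus Treg by 5.11, 5.44 and 4.23 and S100a4 by 3.96, 3.80 and 2.88.

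In lymph node the same 2 genes rose in Treg by less, and 4.68% of all tested genes were called, 3.32% higher and 1.36% lower. S100a6 rose by 1.40 ± 0.32 (2.64-fold; adjusted p = 0.0128) and S100a4 by 1.10 ± 0.30 (2.15-fold; adjusted p = 0.0403). Neither had overlapping arrays, as for 9.88% of all tested genes in that direction. S100a10 differed by 0.75 ± 0.28 (adjusted p = 0.195, but 0.0264 with replicate number and 0.0415 with file number cluster as a block) and its arrays overlapped. S100a13 differed by -0.01 ± 0.20 (adjusted p = 0.999; interval from -0.44 to 0.42). The lymph node calls were near the threshold. S100a4 was not called on the deposited scale (adjusted p = 0.0502), nor without either of the first 2 Treg arrays or any of the 3 Tconv arrays (adjusted p from 0.077 to 0.227). S100a6 was not called without the first Treg array or either of the first 2 Tconv arrays (adjusted p from 0.0525 to 0.0652).

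The first lymph node Treg array was the highest of its group for all 4 tested members and the third was the lowest. Within the 3 pairs with neighbouring file numbers, S100a4 was higher in lymph node Treg by 1.74, 1.25 and 0.31, S100a6 by 2.39, 1.37 and 0.44 and S100a10 by 1.15, 0.86 and 0.23. In each pair these 3 genes were higher in Treg, while their size varied in the same order. S100a13 differed by 0.18, 0.24 and -0.45 in those pairs.

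**Figure D3:**
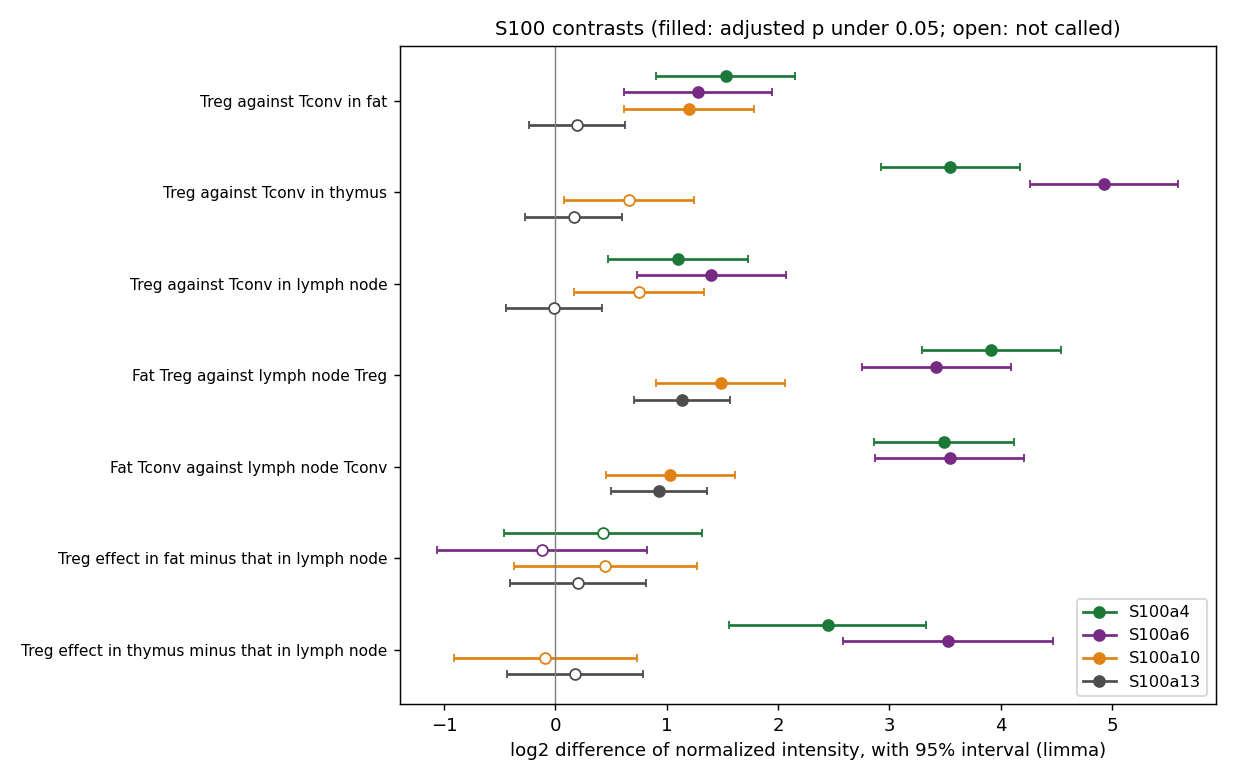
Log2 difference of normalized intensity (x axis) for the 4 tested members in 7 comparisons (rows), each with its 95% interval from limma; filled points passed an adjusted p of 0.05. The thymus row holds the differences of 3.55 for S100a4 and 4.93 for S100a6, and S100a13 passed only in the comparisons of fat with lymph node.

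The differences between Treg and Tconv were then compared between tissues as an interaction. The Treg effect in thymus exceeded that in lymph node by 3.53 ± 0.45 for S100a6 (adjusted p = 0.00118) and by 2.45 ± 0.42 for S100a4 (adjusted p = 0.0144). Thymus Tconv lay under the dim filter on all 3 arrays for both genes, so these sizes are approximate, and with the offset of 32 the value for S100a6 was 2.75 (adjusted p = 0.00718). These 2 of 4 members stand where 0.342% of all tested genes were called, with 0.171% in each direction. Between lymph node and thymus, the Treg groups overlapped for both genes, while the thymus Tconv arrays (29.1 to 34.3 for S100a4) all lay under the lymph node Tconv arrays (132 to 183). For S100a10 the interaction was -0.09 ± 0.39 (interval from -0.92 to 0.73) and for S100a13 0.17 ± 0.29 (-0.44 to 0.78; adjusted p = 0.9997 for both). S100a4 was not called here with each array centred on its median (2.44, adjusted p = 0.0514), with the offset of 32 (1.69, adjusted p = 0.111) or without the second lymph node Treg array (2.37, adjusted p = 0.0504). Sums of CD8 T cell and NK markers ran from 1494 to 7204 in thymus Treg and from 1263 to 1876 in thymus Tconv, against 394 to 432 and 489 to 602 in lymph node Treg and Tconv, and their part in these differences was not tested.

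In fat against lymph node none of the 4 members passed the test of the interaction, where 5.39% of all tested genes were called, 2.48% higher and 2.92% lower. At an unadjusted p under 0.05 the count was also 0. The Treg effect in fat minus that in lymph node was 0.43 ± 0.42 for S100a4 (interval from -0.46 to 1.31), -0.12 ± 0.45 for S100a6 (-1.06 to 0.83), 0.45 ± 0.39 for S100a10 (-0.38 to 1.27) and 0.20 ± 0.29 for S100a13 (-0.41 to 0.81). Each interval spans 0, so neither a larger nor a smaller Treg effect in fat than in lymph node is shown.

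The next question was how the members differ between fat and lymph node within one cell type. All 4 tested members rose in fat Treg against lymph node Treg, where 35.6% of all tested genes were called, 16.3% higher and 19.3% lower. S100a4 rose by 3.92 ± 0.30 (15.1-fold; adjusted p = 2.31e-08), S100a6 by 3.42 ± 0.32 (10.7-fold; adjusted p = 2.6e-07), S100a10 by 1.48 ± 0.28 (2.8-fold; adjusted p = 0.000455) and S100a13 by 1.13 ± 0.20 (2.19-fold; adjusted p = 0.000342). All 4 also rose in fat Tconv against lymph node Tconv, where 23.7% of all tested genes were called, 11.4% higher and 12.3% lower. There S100a4 rose by 3.49 ± 0.30 (11.2-fold), S100a6 by 3.54 ± 0.32 (11.6-fold), S100a10 by 1.03 ± 0.28 (2.05-fold) and S100a13 by 0.93 ± 0.20 (1.91-fold), with adjusted p from 2.34e-07 to 0.0111. Fat and lymph node arrays did not overlap for any of the 4 in either cell type, as for 23.6% of all tested genes in Treg and 17% in Tconv. The call of S100a10 in Tconv was lost without the second fat Tconv array (0.86, adjusted p = 0.0502).

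The size of these rises was set beside the shift of all genes on each scale. Over all genes the median difference was -0.01 in Treg and -0.04 in Tconv after normalization, and 0.34 and 0.32 on the deposited scale. Relative to that median, S100a4 in Treg was at 3.93 after normalization and at 3.99 on the deposited scale, and S100a13 in Treg was at 1.14 and 1.03. The share of called genes that were higher in fat was 45.7% in Treg and 48.0% in Tconv after normalization, but 81.7% and 89.5% on the deposited scale. All 4 members were called higher on both scales and also after median-centring of the arrays.

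The other 2 probe sets of S100a10 were called in the same comparisons as the one used. Between fat and lymph node they gave 1.29 and 1.35 for Treg and 1.14 and 1.35 for Tconv, and in Treg against Tconv 0.85 and 0.54 in fat, 0.59 and 0.13 in thymus and 0.70 and 0.53 in lymph node.

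RNA of other fat cells was present on the fat arrays. Of 8 tested stromal and mesothelial markers 7 were higher in fat Treg and 6 in fat Tconv than in lymph node. Over all tested genes 16.3% were called higher in Treg and 11.4% in Tconv. The summed intensity of these markers over 11 genes ran from 3087 to 8680 in fat Treg and from 2819 to 6535 in fat Tconv, against 473 to 523 and 466 to 554 in lymph node Treg and Tconv. Adipocyte markers summed to 2623 to 5241 in fat Treg and 2097 to 4942 in fat Tconv, against 370.4 to 409 and 370.7 to 418 in the lymph node groups. Fabp4, an adipocyte and macrophage gene, averaged 2085 in fat Treg and 1984 in fat Tconv, against 8.51 and 7.89 in lymph node Treg and Tconv. S100A4 and S100A6 are also known in fibroblasts, so these transcripts bear on both genes. The number of such cells and their RNA per cell cannot be told apart in these arrays.

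Of 18 tested macrophage and monocyte markers, 13 were higher and 1, Ctss, was lower in fat Treg than in lymph node Treg (median 1.65). In fat Tconv against lymph node Tconv 7 were higher and none lower (median 0.78). Over all tested genes 16.3% were called higher and 19.3% lower in Treg, and 11.4% and 12.3% in Tconv. Over 23 genes the sums overlapped, at 3370 to 10159 in fat Treg and 5458 to 8982 in fat Tconv, against 9663 to 10636 and 7861 to 8431 in lymph node Treg and Tconv. Of these 23 genes, 15 to 20 per array lay above the dim filter in fat Treg and 13 to 19 in fat Tconv. In lymph node 9 to 11 did in Treg and 11 to 12 in Tconv. A sum of intensities is weighted to its brightest genes, so these sums do not follow the count of markers called higher. Itgam, which encodes the CD11b of the sort, was at most 27.6 on all of these arrays, below the dim filter. It is a single gene of that list and does not stand for the markers called higher. Of 8 tested neutrophil markers, Mmp9 alone was called (3.69 in Treg and 3.49 in Tconv). The median over the 8 was 0.09 in Treg and -0.05 in Tconv, against -0.01 and -0.04 over all tested genes. Camp averaged 40.1 in fat Treg and 43.1 in fat Tconv, below the dim filter, as S100a8 and S100a9 did. The neutrophil sums over 14 genes, likewise weighted to their brightest genes, did not overlap between fat and lymph node. They ran from 1622 to 2439 in fat Treg and from 1402 to 1619 in fat Tconv. In lymph node they ran from 767 to 941 in Treg and from 808 to 933 in Tconv.

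The second array of each fat group had the lowest sum of its group for the macrophage, stromal and adipocyte lists, but not for every list. The second fat Treg array had the highest neutrophil sum of its group (2439) and the highest B cell marker sum (806). The second fat Tconv array had the middle neutrophil sum (1424) and the highest B cell marker sum (828). S100a4 had 5371 on the second array of fat Treg, the middle value of its group, and 2248 on that of fat Tconv, the highest. Against the lymph node arrays with neighbouring file numbers, these second fat arrays gave S100a4 differences of 4.09 in both Treg and Tconv, where the other 2 pairs gave 3.24 and 4.41 in Treg and 3.52 and 2.86 in Tconv. S100a6 was 3.63 higher on the second array of fat Treg and 3.83 on that of fat Tconv, where the other pairs gave 2.55 and 4.08 in Treg and 3.94 and 2.85 in Tconv. These values come from 1 array per group and pair, and the part of other cells' RNA in the fat differences was not tested.

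**Figure D4:**
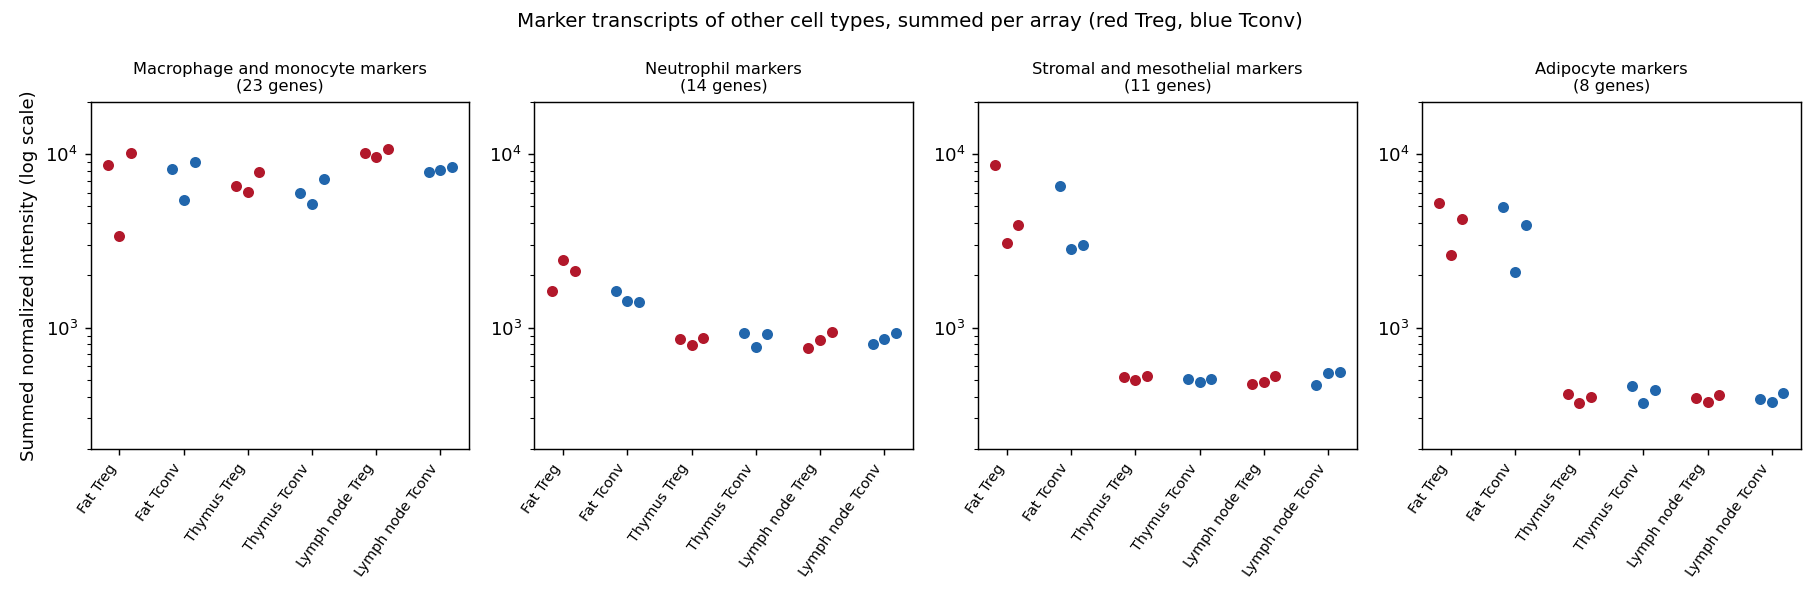
Summed normalized intensity (log scale) of marker transcripts of macrophages and monocytes, neutrophils, stromal and mesothelial cells and adipocytes on each of the 18 arrays; red points are Treg and blue points Tconv. Neutrophil, stromal and adipocyte sums are higher on the 6 fat arrays. A sum is weighted to its brightest genes, and of 8 tested neutrophil markers Mmp9 alone was called between fat and lymph node. The second fat array of each cell type has the lowest stromal sum of its group, at 3087 in Treg and 2819 in Tconv.

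Proteins that bind S100 proteins were followed in a list of partners and receptors, of which 14 of 20 genes were tested. In fat Treg against lymph node Treg 10 rose and 2 fell (median 0.93, against -0.01 over all tested genes), and in fat Tconv against lymph node Tconv 8 rose and none fell (median 0.71, against -0.04). Over all tested genes 16.3% were called higher and 19.3% lower in Treg, and 11.4% and 12.3% in Tconv. Anxa1, the gene of annexin A1, a partner of S100A11, rose by 5.23 ± 0.25 in fat Treg and by 4.95 ± 0.25 in fat Tconv. Anxa2, the gene of the annexin that S100A10 binds, rose by 2.32 ± 0.26 and 2.81 ± 0.26, and in Treg Myh9 (-0.80) and Cacybp (-0.60), the genes of a non-muscle myosin bound by S100A4 and of a calcyclin-binding protein, fell. Cd36, named as a receptor for fatty acids bound by calprotectin, rose by 4.57 and 3.90, and is itself a gene of adipocytes and macrophages. In lymph node it lay below the dim filter, at 12.4 to 13.7 in Treg and 11.95 to 13.75 in Tconv, which makes its fold approximate. The part of other fat cells' RNA in the differences of these partners, the annexins among them, was not tested.

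The partners were also compared between Treg and Tconv, where 12.8% of all tested genes were called in fat, 5.67% in thymus and 4.68% in lymph node. In fat Anxa4 (1.43) and Anxa1 (1.40) rose and Cacybp fell (-0.86), 3 of 14 genes (median 0.22). In the thymus Anxa4 (2.11), Ahnak (1.21), Anxa2 (1.14) and Anxa1 (0.87) rose and Anxa6 fell (-0.79; median -0.04), and in lymph node Anxa4 (1.86), Ahnak (1.54) and Anxa1 (1.12) rose and none fell (median 0.03). Ahnak encodes the large scaffold protein bound by S100A10 with annexin A2. Anxa2 averaged 839 ± 378 in thymus Treg and 361 ± 58.2 in thymus Tconv, against 232 ± 58.8 and 188 ± 44.9 in lymph node Treg and Tconv (SD, n = 3 each). Fgf1, which S100A13 helps to release, rose in both fat groups (0.90 in Treg and 0.77 in Tconv, against lymph node), as S100a13 did. RNA of other fat cells was on these arrays, and its part in either rise was not tested.

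**Figure D5:**
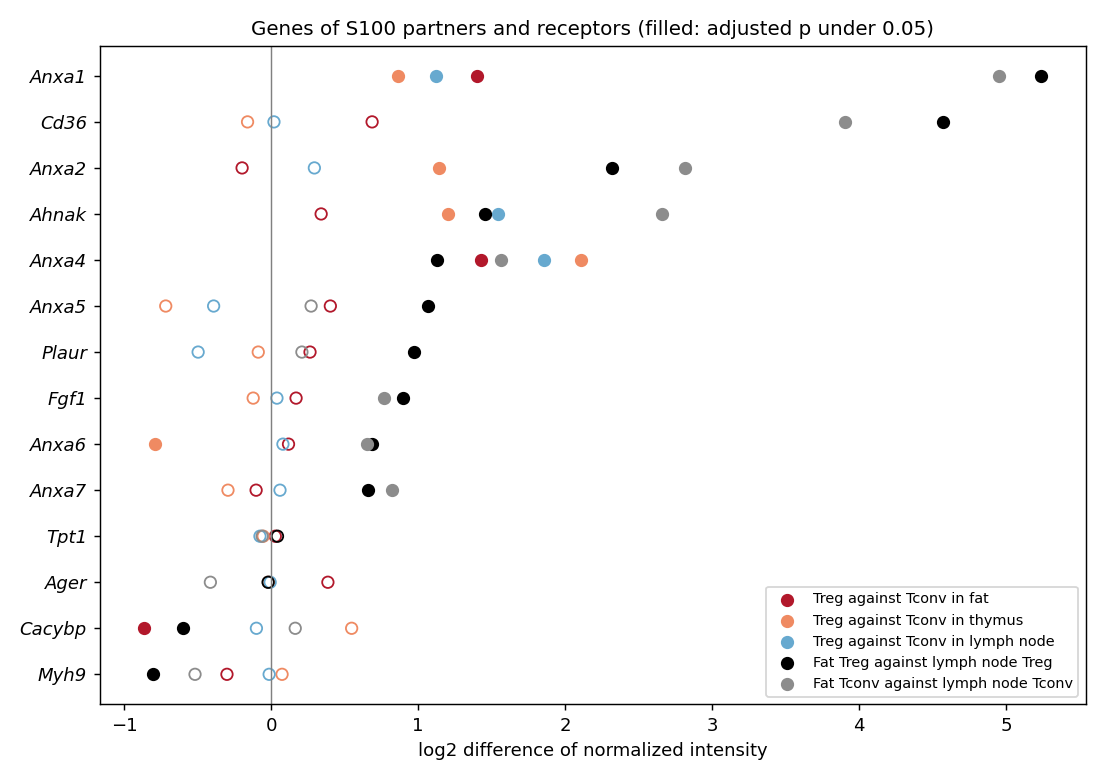
Log2 difference of normalized intensity (x axis) for the 14 tested genes of S100 partners and receptors (rows) in 5 comparisons, marked by colour; filled points passed an adjusted p of 0.05. Anxa1 is farthest to the right, at 5.23 in fat Treg against lymph node Treg, and Anxa4 passed in all 5 comparisons.

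Of 11 genes listed as other S100 genes 4 were tested, and none was called between Treg and Tconv in any tissue. Among the 4 is S100pbp, which encodes a binding protein and not an S100 protein. In fat against lymph node 35.6% of all tested genes were called in Treg and 23.7% in Tconv. In fat against lymph node S100a1 (0.70 in Treg and 0.81 in Tconv) and S100a16 (0.92 and 0.70) rose, and S100pbp, whose product binds S100P in human cells, fell (-1.41 in both). S100a5, which lies between S100a4 and S100a6 in the RefSeq gene order of chromosome 3, averaged 67.7 ± 3.19 in fat Treg and 62.9 ± 7.46 in lymph node Treg, a difference of 0.11 (adjusted p = 0.545), and was not called in any of the 5 comparisons of groups. Of the genes beside the cluster, Ints3, Ilf2 and Snapin were not called in these 5, and Chtop fell in both fat groups (-0.85 in Treg and -0.72 in Tconv, against lymph node).

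Of 19 tested genes of other EF-hand proteins, 6 rose and 2 fell in fat Treg against lymph node Treg (median 0.01), where 35.6% of all tested genes were called, and 4 rose in fat Tconv against lymph node Tconv (median 0.11), where 23.7% were called. These counts are near the share over all genes. Efhd1 (2.07), Capn2 (1.02) and Stim1 (0.95), a sensor of calcium stores, rose most in Treg, and Rcn1 (-1.94) and Stim2 (-0.58) fell. In Treg against Tconv 1 of these genes rose and 2 fell in fat, 1 rose in the thymus and 3 rose in lymph node. Of all tested genes 12.8% were called in fat, 5.67% in the thymus and 4.68% in lymph node.

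A list of effector and memory T cell transcripts was followed beside the members, since S100a4 and S100a6 are known there. In fat Treg against lymph node Treg 17 of 21 rose and 2 fell (median 1.69), and in fat Tconv against lymph node Tconv 18 rose and none fell (median 2.45). Over all tested genes 16.3% were called higher and 19.3% lower in Treg, and 11.4% and 12.3% in Tconv. In Treg against Tconv 12 rose and 2 fell in fat (median 0.76), 11 rose in the thymus (median 0.99) and 8 rose and 1 fell in lymph node (median 0.49). Over all tested genes 6.9% were called higher and 5.95% lower in fat. The shares were 3.5% and 2.17% in the thymus and 3.32% and 1.36% in lymph node. Lmna (5.67), Id2 (4.41) and Lgals3 (4.34) rose most in fat Treg against lymph node Treg. The fat arrays also carried RNA of other fat cells, whose part in the rises of this list was not tested. In naive T cell transcripts, of which 12 were tested, 8 fell and 2 rose in fat Treg (median -1.23) and 8 fell and 1 rose in fat Tconv (median -1.35), with Bach2 (-4.40) and Satb1 (-3.20) lowest in Treg. In Treg against Tconv 7 naive genes fell and 1 rose in fat, 1 fell in the thymus and 5 fell in lymph node.

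The genes whose log2 values were most like each member over the 18 arrays were named by Pearson correlation. For S100a4 these were Ctla2a (r = 0.978), Ctla2b (0.967) and the chemokine receptor gene Cxcr6 (0.965), and for S100a6 Odc1 (0.966), Notch2 (0.96) and Osbpl3 (0.954). For S100a10 they were Tspan17 (0.962), Cdkl2 (0.957) and Ccr2 (0.946), and for S100a13 Glul (0.918), Metrnl (0.909) and Acyp2 (0.904). Over the 6 group means r was between 0.966 and 0.995 for these 12 genes. S100a6 was closer to S100a4, at 0.986, than any of the 3 genes named for either. Ctla2a rose in Treg in all 3 tissues (1.47 in fat, 2.90 in thymus and 1.67 in lymph node), and by 4.51 in fat Treg against lymph node Treg.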

How the data were processed

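RNA of sorted CD4 T cells, amplified in repeated rounds per the labels' protocols, was hybridised to 18 arrays, 3 per group. The authors deposited a linear intensity per probe set, obtained with RMA (version not given) per the submitters' processing notes; which arrays were normalized together is not given in the sources used here. RMA corrects background and summarises probes, and it compresses differences of dim probe sets. Log2 intensities were quantile-normalized over all 18 arrays and fitted with limma 3.58.1 in R 4.3.3 (lmFit, eBayes; 1 coefficient per group, 12 residual and 4.83 prior degrees of freedom), and p-values were Benjamini-Hochberg adjusted over all 12273 tested genes. Of 45101 probe sets, 34945 carried 1 symbol, 932 several and 9160 none, besides 64 controls; 34741 of the first matched RefSeq by gene ID. A gene was tested where at least 1 group mean exceeded the median of all values (65.5). Array number limits the precision, with 3 per group.

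The members and the gene lists were chosen with earlier results of these data known. All members are named, with up to 3 called genes per list and direction. The gene lists also covered dendritic, B and endothelial cell markers: in fat Treg against lymph node Treg 2 of 7, 1 of 5 and 3 of 4 rose, and of T cell identity genes 0 of 10. In the same comparison 2 of the 5 B cell markers and 1 of the 10 T cell identity genes fell, and no dendritic or endothelial marker did. Over all tested genes 16.3% were called higher and 19.3% lower there. The labels number replicates 1 to 3 in each group; deviations of same-numbered Treg and Tconv arrays from their group means correlated at 0.366 to 0.658 over genes in the 9 pairs, so the numbers were taken to pair the arrays and were used as a block in an alternative. The fitting was tested on simulated data. Alternatives were the scale, an offset of 32, other filters, fewer arrays in the fit, blocks, other probe sets and leaving out each array.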

Additional observations from a re-analysis of the deposited data

Results flagged for a closer look

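The difference between Treg and Tconv was larger in thymus than in lymph node for 2 members, by a test of the interaction in limma. For S100a6 the difference was 3.53 ± 0.45 (log2 ± SE; adjusted p = 0.00118) and for S100a4 2.45 ± 0.42 (adjusted p = 0.0144), with 3 arrays in each of the 4 groups. Thymus Tconv arrays lay under the dim filter at 65.5 for both genes, and strain and age differ between these tissues, as does the BDC2.5 transgene, so tissue, strain, transgene and age cannot be told apart.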

How the results depend on the processing

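Of the members, 2 were called in lymph node Treg against Tconv, but 1 on the deposited scale, 1 with arrays centred on their median, 1 with an offset of 32, 1 without the dim filter, 0 with the lymph node arrays alone and 0 to 3 with 1 array left out (0 without Treg array 1 or Tconv array 1 or 2). In the thymus minus lymph node interaction 2 were called, but 1 with centred arrays, 1 with the offset and 1 to 2 with 1 array left out. In fat Treg against Tconv 3 were called, but 1 without both fat arrays numbered 1 and 2 to 3 with 1 array left out. Counts with 1 array left out were 2 in thymus, 4 in fat against lymph node Treg, 3 to 4 in Tconv and 0 in the fat minus lymph node interaction. With the replicate block 3 members were called in lymph node and 3 in thymus, since S100a10 passed; the block changed no other member's call. Over all genes the block gave 1098 calls in lymph node (574 without), 1671 in thymus (696), 2844 in fat (1577), 1462 in the fat minus lymph node interaction (662) and 138 in that of thymus (42). S100a13 in lymph node changed sign, at 0.0573 as deposited and 0.0807 centred, and ran from -0.20 to 0.30 with 1 array left out. Sign changes with 1 array left out also occurred in interactions. In fat minus lymph node S100a6 ran from -0.51 to 0.33 and S100a13 from -0.10 to 0.39, and in thymus minus lymph node S100a10 from -0.43 to 0.25 and S100a13 from -0.13 to 0.36. The cause of these changes was not tested. Signals under the dim filter limit what can be said of S100a8, S100a9 and of S100a4 and S100a6 in thymus Tconv.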
